A study of Oryza sativa with 12 samples.

Results

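Heat shock factors (Hsfs) and molecular chaperones were followed in rice anthers after a cold night. The set holds 48 genes of the 55985 in the deposited table, taken by locus identifier from a list and not by their values. It comprises 24 Hsf genes (12 of class A, 8 of class B and 4 of class C) and 24 chaperone genes (1 Hsp101, 3 Hsp90, 7 Hsp70, 2 DnaJ and 11 small Hsp20 genes). All 48 loci were found in the table, which names genes by MSU locus alone, so each gene is called here by its locus and class. The list names the classes in order without marking where each begins. The class of each locus was assigned from that order and could not be checked against the table, and the class counts, sums, shares and medians below rest on it.

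Hsfs are transcription factors that bind heat shock elements in promoters and switch on chaperone genes when proteins unfold. Class A members carry an activator domain, whereas class B and class C members lack it and many class B members dampen transcription. Among the chaperones, small Hsp20 proteins hold unfolding proteins in a soluble state, Hsp70 refolds them with ATP and is fed by DnaJ partners, Hsp90 matures signalling proteins such as kinases, and Hsp101 pulls proteins out of aggregates. Anthers and developing pollen are known as heat-sensitive tissue, and several chaperone genes are expressed there without any stress.

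The samples were anthers at a post-meiotic stage from the cold-stress tolerant cultivar ERYTHROCEROS HOKKAIDO (ERY) and the cold-stress susceptible cultivar SANT ANDREA (S.AND). Each cultivar had 3 samples kept at 8 °C during 1 night (COLD) and 3 samples kept at 24 °C (CONTROL), that is 12 samples in 4 groups. Spikelets were collected when the lights came on, and each sample pooled the anthers of several plants. The table holds a group mean for each gene and no values per sample. Each RPKM below is therefore the authors' mean, with no SD, and no difference could be tested against the spread between replicates. RPKM is a read count scaled by the length of the gene model and by the total of mapped reads. The columns of the 4 groups have the same total within 2 RPKM, so each value is also a share of its column. Log2FC is the log2 of the COLD mean over the CONTROL mean, with no pseudocount. A gene is called higher or lower where the means differ by at least 2-fold and the higher mean is at least 1 RPKM, which describes these means and is not a significance call.

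The anther label was checked against 8 marker genes. OsC6 (LOC_Os11g37280), expressed in the tapetum, the cell layer that feeds the microspores, ranged from 19829 to 25952 RPKM over the groups, and OsMADS3 (LOC_Os01g10504), a stamen identity gene, from 362 to 455 RPKM. For DL (LOC_Os03g11600), a marker of the pistil, the means of ERY (COLD 14.1, CONTROL 12.4 RPKM) stood above those of S.AND (COLD 2.59, CONTROL 5.62 RPKM). Its log2FC was 0.19 for ERY but -1.12 for S.AND. What this cultivar difference in DL adds to the comparisons of ERY with S.AND below was not tested. Of the 5 tapetum markers, 4 had a lower mean in COLD than in CONTROL in each cultivar. Their summed level was 22643 RPKM in ERY COLD against 28516 RPKM in ERY CONTROL, and 21991 RPKM in S.AND COLD against 27278 RPKM in S.AND CONTROL. OsC6 made most of this sum, with 20286 RPKM in ERY COLD and 25952 RPKM in ERY CONTROL. The single markers differed: log2FC in ERY and S.AND was -1.05 and -0.83 for EAT1 (LOC_Os04g51070). It was -0.01 and -0.19 for OsRAFTIN1 (LOC_Os08g38810), and 0.14 and 0.41 for UDT1 (LOC_Os07g36460). The part of these marker shifts in the values below was not tested, and in bulk anthers fewer cells of a type and less RNA per cell cannot be told apart. The log2FC had a median of 0.03 over the 23929 genes compared in ERY and of 0.00 over the 24200 genes compared in S.AND.

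Class C held Hsf genes with a higher mean in COLD, and LOC_Os02g13800 had the greatest COLD over CONTROL ratio of all 48 members in both cultivars. It had 88.4 RPKM in ERY COLD against 7.66 RPKM in ERY CONTROL, and 46.5 RPKM in S.AND COLD against 8.13 RPKM in S.AND CONTROL. It was thus 11.5-fold higher in COLD in ERY and 5.71-fold higher in S.AND, from control levels that were close to each other. These ratios ranked 66 of 23929 genes in ERY and 131 of 24200 genes in S.AND, counted from the highest. LOC_Os01g53220 had 48.8 RPKM in ERY COLD against 6.38 RPKM in ERY CONTROL, and 23.6 RPKM in S.AND COLD against 6.36 RPKM in S.AND CONTROL. The log2FC of this gene reached 2.94 in ERY and 1.89 in S.AND, again from almost equal controls. The third class C gene, LOC_Os06g35960, was expressed at a lower level, with 4.64 RPKM in ERY COLD against 2.10 RPKM in ERY CONTROL. With 1 RPKM added to each mean, this log2FC came to 0.86 and was no longer called. In S.AND it had 1.56 RPKM in COLD against 0.895 RPKM in CONTROL, 1.74-fold apart and short of the 2-fold limit. LOC_Os01g43590 was hardly detected, with 0.0277 RPKM in ERY COLD, 0.135 RPKM in ERY CONTROL and 0.0416 RPKM in S.AND CONTROL, and it is listed at 0 in S.AND COLD. In all, 3 of the 4 class C genes were higher in ERY COLD, where 8.18% of all genes were called higher, and 2 were higher in S.AND COLD, where 5.42% were.

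**Figure D1:**
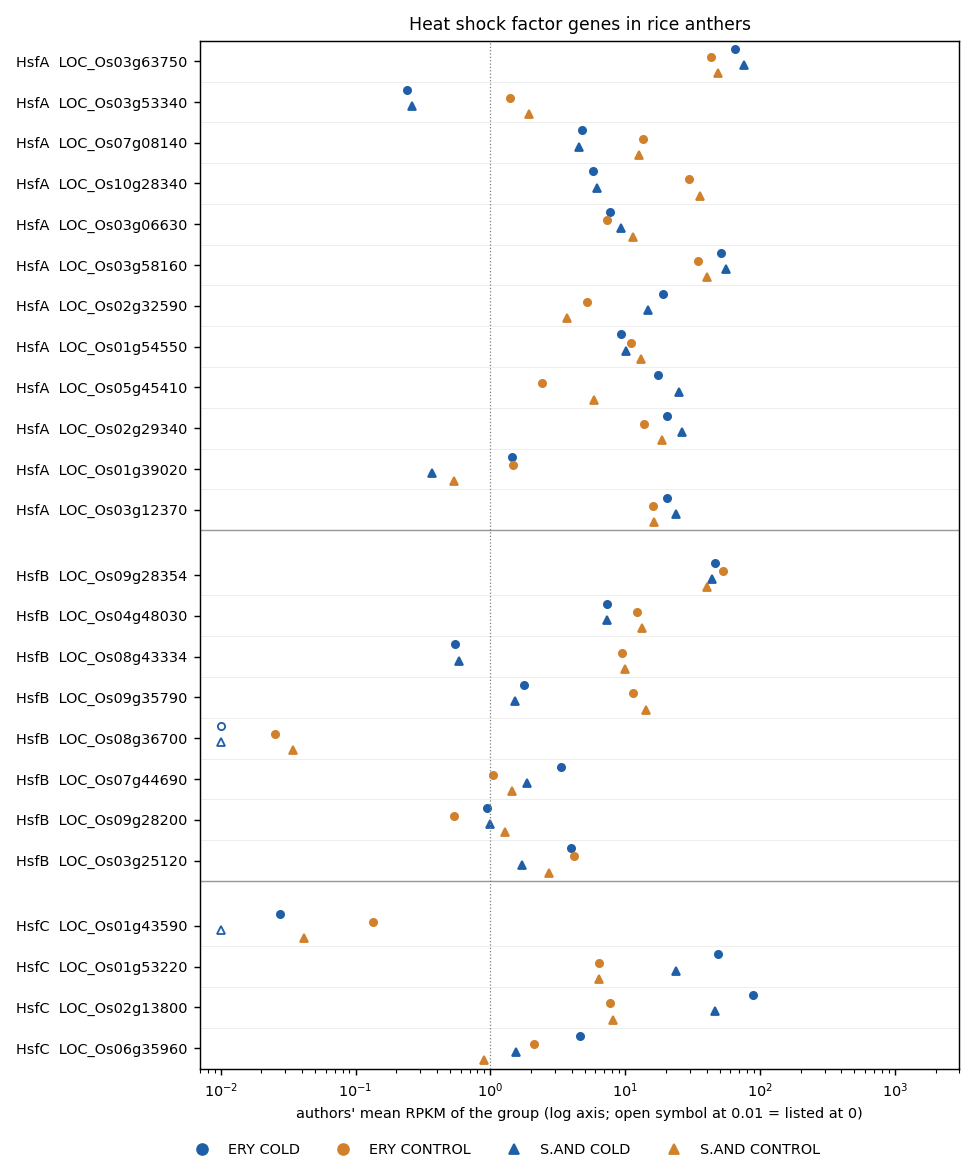
Authors' mean RPKM of the 24 Hsf genes (log axis), with circles for ERY and triangles for S.AND and blue for COLD and orange for CONTROL; open symbols mark values listed at 0 and the dotted line marks 1 RPKM. The blue symbols of LOC_Os02g13800 (88.4 and 46.5 RPKM) lie far right of its orange ones (7.66 and 8.13 RPKM), while those of LOC_Os08g43334 (0.547 and 0.583 RPKM) lie far left (9.49 and 9.97 RPKM).

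Class A, the activator class, split into genes that were higher in COLD, genes that were lower and genes that hardly moved. LOC_Os05g45410 had 17.6 RPKM in ERY COLD against 2.41 RPKM in ERY CONTROL, and 24.96 RPKM in S.AND COLD against 5.86 RPKM in S.AND CONTROL. LOC_Os02g32590 had 19.1 RPKM in ERY COLD against 5.24 RPKM in ERY CONTROL, and 14.8 RPKM in S.AND COLD against 3.69 RPKM in S.AND CONTROL. These were the class A genes higher in COLD, by 7.29-fold and 3.65-fold in ERY and by 4.26-fold and 4.01-fold in S.AND.

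The class A genes lower in COLD were the same in both cultivars. LOC_Os10g28340 had 5.79 RPKM in ERY COLD against 29.8 RPKM in ERY CONTROL, and 6.21 RPKM in S.AND COLD against 35.5 RPKM in S.AND CONTROL. In the controls it was the fourth most abundant Hsf of each cultivar, with a log2FC of -2.36 for ERY and of -2.52 for S.AND. LOC_Os07g08140 had 4.80 RPKM in ERY COLD against 13.5 RPKM in ERY CONTROL, and 4.53 RPKM in S.AND COLD against 12.7 RPKM in S.AND CONTROL. LOC_Os03g53340 was low throughout, with 0.241 RPKM in ERY COLD against 1.39 RPKM in ERY CONTROL, and 0.262 RPKM in S.AND COLD against 1.93 RPKM in S.AND CONTROL. With 1 RPKM added to each mean, its log2FC in ERY was -0.94, short of the limit.

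The other 7 class A genes were not called in either cultivar. The most abundant of them, LOC_Os03g63750, had 65.4 RPKM in ERY COLD against 42.9 RPKM in ERY CONTROL, and 75.9 RPKM in S.AND COLD against 48.7 RPKM in S.AND CONTROL. LOC_Os03g58160 had 51.5 RPKM in ERY COLD against 34.5 RPKM in ERY CONTROL, and 56.1 RPKM in S.AND COLD against 40.4 RPKM in S.AND CONTROL. LOC_Os02g29340 had 20.4 RPKM in ERY COLD against 13.8 RPKM in ERY CONTROL, and 26.3 RPKM in S.AND COLD against 18.6 RPKM in S.AND CONTROL. Each of these had a COLD mean above its CONTROL mean in both cultivars, by 1.39-fold to 1.56-fold. LOC_Os03g12370 likewise had 20.2 RPKM in ERY COLD against 16.1 RPKM in ERY CONTROL, and 23.6 RPKM in S.AND COLD against 16.4 RPKM in S.AND CONTROL. LOC_Os01g54550 had 9.28 RPKM in ERY COLD against 10.9 RPKM in ERY CONTROL, and 10.1 RPKM in S.AND COLD against 13.0 RPKM in S.AND CONTROL. LOC_Os03g06630 had 7.73 RPKM in ERY COLD against 7.32 RPKM in ERY CONTROL, and 9.27 RPKM in S.AND COLD against 11.5 RPKM in S.AND CONTROL. LOC_Os01g39020 stayed at or under 1.48 RPKM in the 4 groups. The class A median log2FC was 0.21 over 12 genes in ERY and 0.47 over 11 genes in S.AND.

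Class B genes included the lowest log2FC of the whole set. LOC_Os08g43334 had 0.547 RPKM in ERY COLD against 9.49 RPKM in ERY CONTROL, and 0.583 RPKM in S.AND COLD against 9.97 RPKM in S.AND CONTROL. It was 17.3-fold lower in COLD in ERY and 17.1-fold lower in S.AND, ranking 24 and 22 from the lowest of all genes. These ratios rest on COLD means under 1 RPKM, and the minimum fixed their direction. With 1 RPKM added to each mean, the log2FC of this gene was -2.76 in ERY and -2.79 in S.AND. LOC_Os09g35790 had 1.77 RPKM in ERY COLD against 11.4 RPKM in ERY CONTROL, and 1.52 RPKM in S.AND COLD against 14.2 RPKM in S.AND CONTROL. LOC_Os04g48030 leaned the same way without reaching 2-fold, with 7.28 RPKM in ERY COLD against 12.3 RPKM in ERY CONTROL, and 7.27 RPKM in S.AND COLD against 13.3 RPKM in S.AND CONTROL. By contrast, the most abundant class B gene kept similar means: LOC_Os09g28354 had 46.5 RPKM in ERY COLD against 52.8 RPKM in ERY CONTROL, and 43.6 RPKM in S.AND COLD against 40.6 RPKM in S.AND CONTROL. LOC_Os07g44690, at a low level, was called higher in COLD in ERY and was not called in S.AND, with 3.32 RPKM in ERY COLD against 1.05 RPKM in ERY CONTROL and 1.88 RPKM in S.AND COLD against 1.43 RPKM in S.AND CONTROL. The remaining 3 class B genes, LOC_Os03g25120, LOC_Os09g28200 and LOC_Os08g36700, stayed at or under 4.198 RPKM and were not called in COLD over CONTROL. LOC_Os09g28200 had 0.946 RPKM in ERY COLD and 0.536 RPKM in ERY CONTROL, under the minimum, and was not compared in ERY. LOC_Os08g36700 is listed at 0 in both COLD groups. Its controls were 0.0255 RPKM in ERY and 0.0345 RPKM in S.AND.

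In ERY, 6 Hsf genes were higher and 5 lower in COLD out of 21 with at least 1 RPKM in a group. In S.AND, 4 were higher and 5 lower out of 21. Of all genes, 14.8% were called in ERY (8.18% higher and 6.65% lower) and 14.6% in S.AND (5.42% higher and 9.21% lower). Of the lower Hsf genes, 2 in each cultivar (LOC_Os03g53340 and LOC_Os08g43334) reached 1 RPKM in CONTROL alone and so had to show a lower COLD mean. With a minimum of 10 RPKM, 3 Hsf genes were lower in each cultivar, since LOC_Os08g43334 and LOC_Os03g53340 stay under it.

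The order of the Hsf genes by mean RPKM differed between the groups, and without replicate values neighbours in this order could not be told apart. LOC_Os02g13800 stood at position 1 of 24 in ERY COLD and at position 12 in ERY CONTROL. In S.AND it stood at position 3 in COLD and at position 13 in CONTROL. The leaders in the other groups were LOC_Os09g28354 in ERY CONTROL and LOC_Os03g63750 in both S.AND groups. Summed over the class, class C made 142 RPKM in ERY COLD against 16.3 RPKM in ERY CONTROL, and 71.6 RPKM in S.AND COLD against 15.4 RPKM in S.AND CONTROL. This was 33.0% of the summed Hsf level in ERY COLD against 5.66% in ERY CONTROL, and 18.8% in S.AND COLD against 5.01% in S.AND CONTROL. LOC_Os02g13800 weighs most in the class C sum, and without it the sum was 53.5 RPKM in ERY COLD against 8.62 RPKM in ERY CONTROL, and 25.1 RPKM in S.AND COLD against 7.30 RPKM in S.AND CONTROL. Class B moved the other way, with 64.3 RPKM in ERY COLD against 91.8 RPKM in ERY CONTROL, and 57.6 RPKM in S.AND COLD against 83.5 RPKM in S.AND CONTROL. Class A summed to 223 RPKM in ERY COLD against 179.5 RPKM in ERY CONTROL, and to 252.5 RPKM in S.AND COLD against 209 RPKM in S.AND CONTROL.

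**Figure D2:**
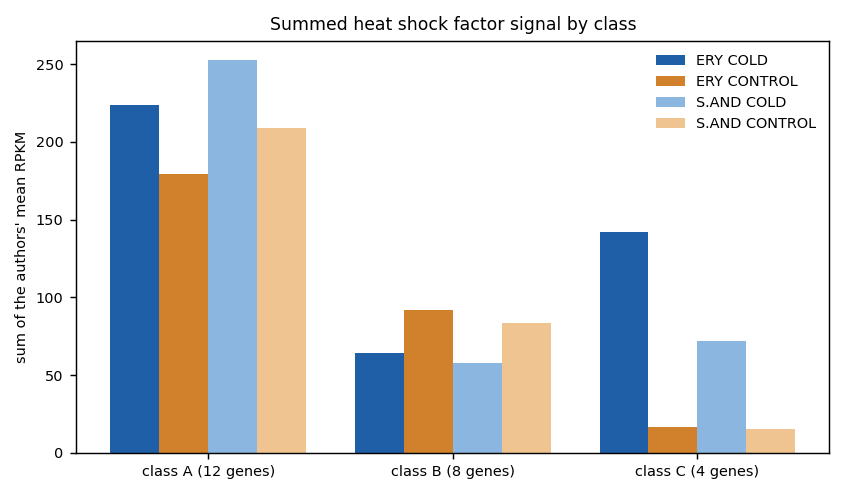
Sum of the authors' mean RPKM over the Hsf genes of each class, with a bar for each of the 4 groups and no error bars, since the table holds means alone. The class C bar of ERY reaches 142 RPKM in COLD against 16.3 RPKM in CONTROL, and that of S.AND 71.6 RPKM in COLD against 15.4 RPKM in CONTROL.

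Most chaperone genes had a COLD mean under the CONTROL mean in both cultivars, in part by less than 2-fold. Among 22 chaperone genes with at least 1 RPKM in a group of ERY, 9 were called lower and 1 higher, and 21 had a COLD mean under the CONTROL mean. In S.AND 12 were called lower and 1 higher of 23, and 21 had the lower mean in COLD. The shares called lower were 40.9% in ERY and 52.2% in S.AND, beside 6.65% and 9.21% of all genes. These shares include 1 gene in ERY and 2 genes in S.AND that reached 1 RPKM in CONTROL alone and so could not be called higher. Among the 21 chaperone genes with at least 1 RPKM in both groups, 8 were lower in ERY and 10 in S.AND. The median log2FC was -0.82 over the 22 genes compared in ERY and -1.03 over the 23 compared in S.AND. Both medians include the genes that reached 1 RPKM in CONTROL alone. With a 3-fold limit, 4 chaperone genes were lower in ERY and 8 in S.AND. Added up, the 24 chaperone genes made 0.298% of the column in ERY COLD against 0.441% in ERY CONTROL, and 0.323% in S.AND COLD against 0.460% in S.AND CONTROL.

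**Figure D3:**
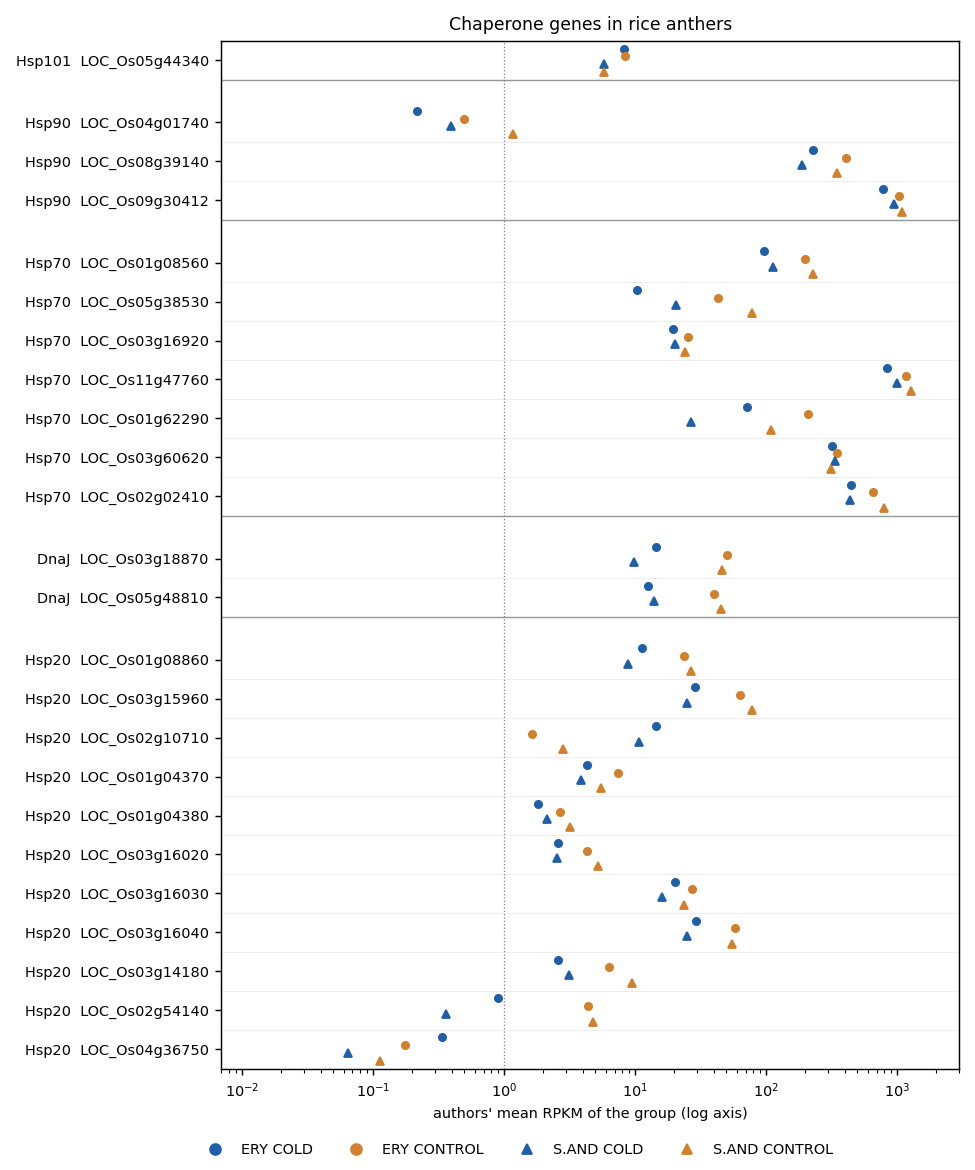
Authors' mean RPKM of the 24 chaperone genes (log axis), with circles for ERY and triangles for S.AND and blue for COLD and orange for CONTROL; the dotted line marks 1 RPKM. Blue symbols lie left of the orange ones in most rows, and LOC_Os02g10710 is the row with both blue symbols (14.5 and 10.8 RPKM) right of both orange ones (1.63 and 2.81 RPKM).

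Hsp70 genes, with an ATP-driven folding role, made the largest part of the chaperone level, 60.3% to 61.7% of the sum in the 4 groups. LOC_Os05g38530 had 10.3 RPKM in ERY COLD against 43.3 RPKM in ERY CONTROL, and 20.6 RPKM in S.AND COLD against 78.7 RPKM in S.AND CONTROL. LOC_Os01g62290 had 72.4 RPKM in ERY COLD against 209.9 RPKM in ERY CONTROL, and 26.8 RPKM in S.AND COLD against 109 RPKM in S.AND CONTROL. The order of the cultivars differed between these genes, S.AND being above ERY for LOC_Os05g38530 and under it for LOC_Os01g62290 in both conditions. LOC_Os01g08560 had 97.6 RPKM in ERY COLD against 199 RPKM in ERY CONTROL, and 113 RPKM in S.AND COLD against 231 RPKM in S.AND CONTROL. With 2.04-fold lower means in each cultivar it lay just inside the limit.

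The other 4 Hsp70 genes stayed under 2-fold. LOC_Os11g47760, at the top of the 24 chaperone genes in each group, had 843 RPKM in ERY COLD against 1181 RPKM in ERY CONTROL, and 1004 RPKM in S.AND COLD against 1293 RPKM in S.AND CONTROL. LOC_Os02g02410 had 446 RPKM in ERY COLD against 657 RPKM in ERY CONTROL, and 439.9 RPKM in S.AND COLD against 791 RPKM in S.AND CONTROL. LOC_Os03g60620 had 320.1 RPKM in ERY COLD against 346 RPKM in ERY CONTROL, and 339 RPKM in S.AND COLD against 314 RPKM in S.AND CONTROL. It was the Hsp70 gene whose log2FC differed in sign between the cultivars, -0.11 in ERY and 0.11 in S.AND. LOC_Os03g16920 had 19.5 RPKM in ERY COLD against 25.4 RPKM in ERY CONTROL, and 20.2 RPKM in S.AND COLD against 24.2 RPKM in S.AND CONTROL. In each cultivar 3 of the 7 Hsp70 genes were lower and 0 higher, with no test behind this count, and the class median was -0.56 in ERY and -0.85 in S.AND.

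Both DnaJ genes, which encode partners of Hsp70, were lower in COLD. LOC_Os03g18870 had 14.4 RPKM in ERY COLD against 50.3 RPKM in ERY CONTROL, and 9.89 RPKM in S.AND COLD against 46.5 RPKM in S.AND CONTROL. LOC_Os05g48810 had 12.7 RPKM in ERY COLD against 39.9 RPKM in ERY CONTROL, and 14.1 RPKM in S.AND COLD against 45.6 RPKM in S.AND CONTROL. Their log2FC lay between -1.80 and -1.66 in ERY and between -2.23 and -1.69 in S.AND. Summed, they made 0.909% of the chaperone level in ERY COLD against 2.04% in ERY CONTROL, and 0.744% in S.AND COLD against 2.001% in S.AND CONTROL.

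Neither Hsp101 nor the abundant Hsp90 genes were called in either cultivar. The Hsp90 gene LOC_Os09g30412 had 788 RPKM in ERY COLD against 1041 RPKM in ERY CONTROL, and 945 RPKM in S.AND COLD against 1097 RPKM in S.AND CONTROL. LOC_Os08g39140, also of Hsp90, had 229 RPKM in ERY COLD against 412 RPKM in ERY CONTROL, and 189.6 RPKM in S.AND COLD against 349 RPKM in S.AND CONTROL. It was 1.80-fold lower in COLD in ERY and 1.84-fold lower in S.AND, under the 2-fold limit in both. LOC_Os04g01740 was near the floor, with 0.216 RPKM in ERY COLD against 0.497 RPKM in ERY CONTROL, and 0.395 RPKM in S.AND COLD against 1.18 RPKM in S.AND CONTROL. Its call as lower in S.AND rests on a single group above 1 RPKM and is lost when 1 RPKM is added to each mean (log2FC of -0.65). Hsp101 (LOC_Os05g44340), the disaggregase, had 8.20 RPKM in ERY COLD against 8.37 RPKM in ERY CONTROL, and 5.78 RPKM in both S.AND groups.

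Of the 10 small Hsp20 genes compared in each cultivar, whose products keep unfolding proteins soluble, all but LOC_Os02g10710 had the lower mean in COLD. That gene had 14.5 RPKM in ERY COLD against 1.63 RPKM in ERY CONTROL, and 10.8 RPKM in S.AND COLD against 2.81 RPKM in S.AND CONTROL. It was 8.90-fold higher in COLD in ERY and 3.85-fold higher in S.AND, and it was the chaperone gene called higher in each cultivar. LOC_Os03g15960 had 28.8 RPKM in ERY COLD against 63.6 RPKM in ERY CONTROL, and 24.8 RPKM in S.AND COLD against 78.9 RPKM in S.AND CONTROL. LOC_Os01g08860 had 11.4 RPKM in ERY COLD against 23.8 RPKM in ERY CONTROL, and 8.86 RPKM in S.AND COLD against 26.7 RPKM in S.AND CONTROL. Both were lower by a larger factor in S.AND (3.18-fold and 3.01-fold) than in ERY (2.20-fold and 2.09-fold). LOC_Os02g54140 had 0.905 RPKM in ERY COLD against 4.36 RPKM in ERY CONTROL, and 0.359 RPKM in S.AND COLD against 4.77 RPKM in S.AND CONTROL. LOC_Os03g14180 had 2.58 RPKM in ERY COLD against 6.39 RPKM in ERY CONTROL, and 3.14 RPKM in S.AND COLD against 9.57 RPKM in S.AND CONTROL. Both were called lower in each cultivar, but LOC_Os02g54140 reached 1 RPKM in CONTROL alone, so its direction was fixed by the minimum. The log2FC of LOC_Os03g14180 was -1.31 for ERY and -1.61 for S.AND.

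A further 5 small Hsp20 genes have consecutive locus numbers (LOC_Os01g04370 and LOC_Os01g04380, and LOC_Os03g16020, LOC_Os03g16030 and LOC_Os03g16040). If they are near-identical copies, the counting could have shared reads among them, so their values are uncertain. LOC_Os03g16040 was the most abundant, with 29.5 RPKM in ERY COLD against 57.7 RPKM in ERY CONTROL, and 24.9 RPKM in S.AND COLD against 55.3 RPKM in S.AND CONTROL. Its ratio lay just outside the limit in ERY (1.96-fold lower) and inside it in S.AND (2.23-fold lower). LOC_Os03g16030 had 20.3 RPKM in ERY COLD against 27.4 RPKM in ERY CONTROL, and 16.1 RPKM in S.AND COLD against 23.7 RPKM in S.AND CONTROL. LOC_Os03g16020 had 2.57 RPKM in ERY COLD against 4.28 RPKM in ERY CONTROL, and 2.54 RPKM in S.AND COLD against 5.199 RPKM in S.AND CONTROL, a call in S.AND that adding 1 RPKM removed (log2FC of -0.81). The 2 on the other locus run were low, with LOC_Os01g04370 at 4.28 RPKM in ERY COLD against 7.46 RPKM in ERY CONTROL, and 3.91 RPKM in S.AND COLD against 5.53 RPKM in S.AND CONTROL, and LOC_Os01g04380 with at most 3.18 RPKM in a group. All 5 had the lower mean in COLD in both cultivars, by 1.35-fold to 2.23-fold, and without them 9 chaperone genes were lower in ERY and 10 in S.AND. LOC_Os04g36750 stayed at or under 0.337 RPKM in each group. Over the class, 4 small Hsp20 genes were lower in ERY and 6 in S.AND, with 1 higher in each, and the class median stood at -0.88 for ERY and -1.09 for S.AND.

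**Figure D4:**
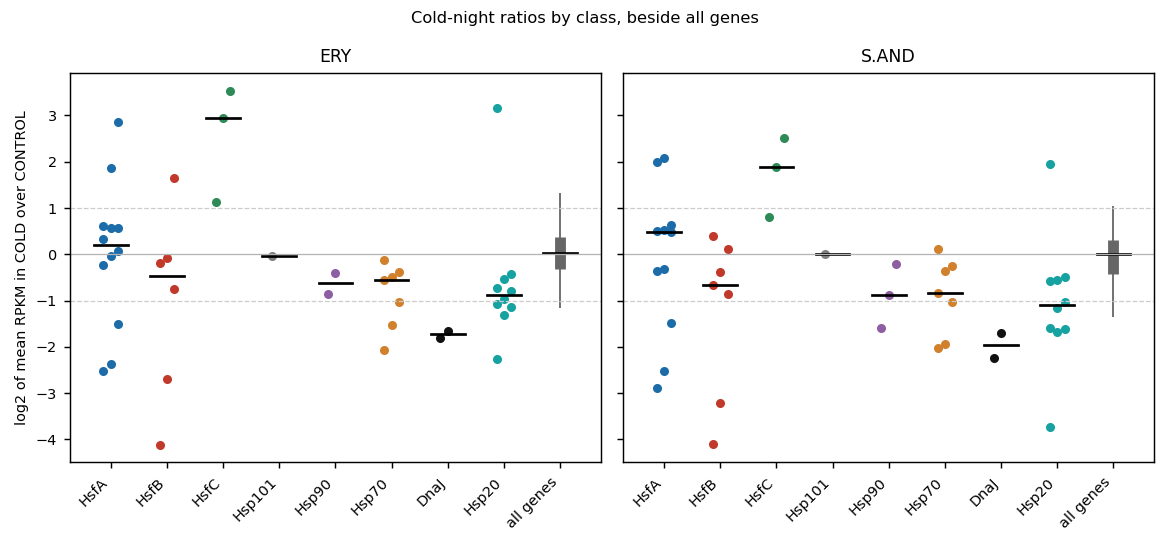
Log2FC of members with at least 1 RPKM in a group, by class, in ERY (left) and S.AND (right); black bars are class medians, and the grey mark gives the median, quartiles and the 5th to 95th percentile of all genes. Class C medians (2.94 and 1.89) and DnaJ medians (-1.73 and -1.96) stand on opposite sides of the all-gene medians (0.03 and 0.00).

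The cultivars were then set side by side, since they differ in cold tolerance. Of the 42 members that could be compared in both, 5 were higher and 14 were lower in COLD in both cultivars, while 0 were called in opposite directions. Among the 14, LOC_Os03g53340, LOC_Os08g43334 and LOC_Os02g54140 reached 1 RPKM in CONTROL alone in both cultivars, so the minimum fixed their shared direction. They also enter the count of shared sign and the correlation below. Over all genes, 3.78% were higher and 3.83% lower in both, and 0.375% were called in opposite directions. LOC_Os07g44690 and LOC_Os06g35960 passed 2-fold for ERY without doing so for S.AND, 2 of 42 members beside 5.65% of all genes. LOC_Os03g16020 and LOC_Os03g16040 did the reverse, 2 of 42 beside 5.17%. The log2FC had the same sign in 39 of the 42 members and in 76.7% of all genes. Across these 42 genes, which are not independent replicates, Pearson's r between the log2FC of ERY and of S.AND was 0.96, beside 0.71 across 22639 genes. These 2 values of r are not alike, since r depends on how widely the ratios spread. Of the 42 members 19 passed 2-fold in neither cultivar, against 18380 of the 22639 genes. The cultivars share no library, but their group means come from the same authors' processing.

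The ratio differed between the cultivars by at least 1 log2 unit in 5 of the 42 members, against 7.16% of all genes, and 4 of these were genes with the higher mean in COLD. The log2FC in ERY exceeded that in S.AND by 1.05 for LOC_Os01g53220 and by 1.01 for LOC_Os02g13800, both of class C. It exceeded it by 1.26 for LOC_Os07g44690 of class B, by 1.21 for the small Hsp20 gene LOC_Os02g10710 and by 0.78 for LOC_Os05g45410 of class A. The fifth gene, LOC_Os02g54140, had a difference of 1.46 that rests on COLD means under 1 RPKM. With 1 RPKM added to each mean its log2FC came to -1.49 in ERY and -2.09 in S.AND, less than 1 log2 unit apart. On the same footing LOC_Os07g44690 came to 1.07 in ERY and 0.24 in S.AND, LOC_Os02g10710 to 2.56 and 1.63, and LOC_Os02g13800 to 3.37 and 2.38. These too were less than 1 log2 unit apart, LOC_Os02g13800 by a small margin. LOC_Os01g53220, at 2.76 in ERY and 1.74 in S.AND, stayed more than 1 log2 unit apart. ERY had the greater log2FC for 28 of the 42 members and for 51.7% of all genes. That count includes genes lower in COLD in both cultivars, where a greater log2FC is a smaller fall, as for LOC_Os03g15960 (-1.14 in ERY, -1.67 in S.AND). LOC_Os02g32590, at 1.87 in ERY and 2.002 in S.AND, was the gene higher in both cultivars with the greater ratio in S.AND. No test of these differences could be made.

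**Figure D5:**
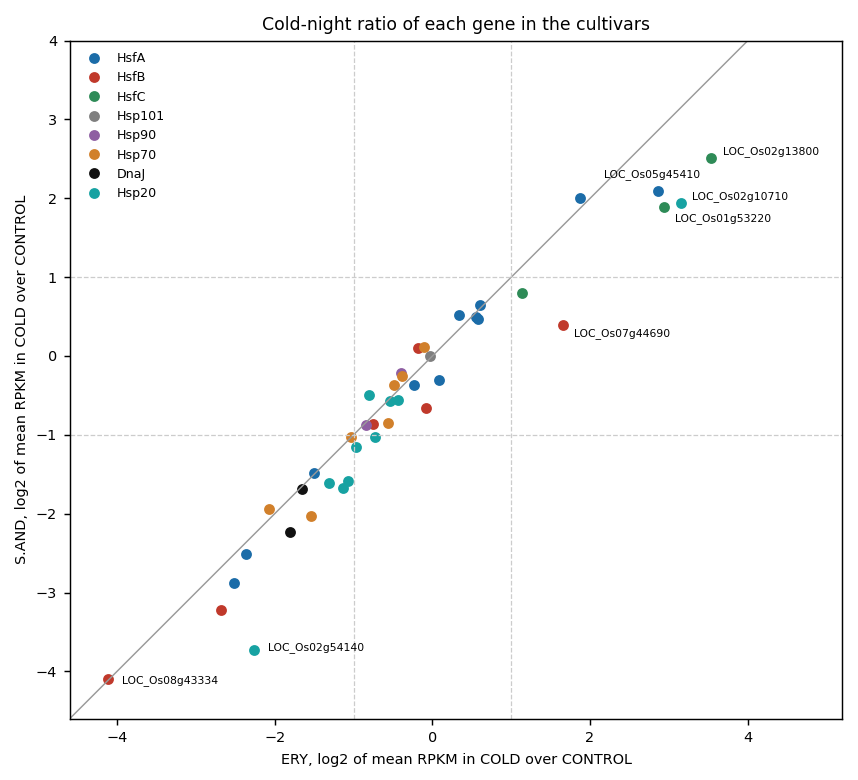
Log2FC of the 42 members in ERY (horizontal axis) and in S.AND (vertical axis), coloured by class, with the line of equal ratios and dashed lines at 2-fold. LOC_Os02g13800 (3.53 and 2.51) lies under the line, LOC_Os02g32590 (1.87 and 2.002) lies above it, and LOC_Os08g43334 (-4.12 and -4.10) lies on it.

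Levels in the same condition were also compared, as ERY over S.AND. In COLD, 5 members were higher in ERY and 0 were lower in ERY out of 40, beside 6.51% and 6.6% of all genes (13.1% either way). Among them were LOC_Os01g53220 (48.8 RPKM in ERY, 23.6 RPKM in S.AND) and the Hsp70 gene LOC_Os01g62290 (72.4 RPKM in ERY, 26.8 RPKM in S.AND). The others, LOC_Os06g35960, LOC_Os03g25120 and LOC_Os01g39020, had at most 4.64 RPKM in ERY COLD. Just outside the limit were LOC_Os02g13800, with a log2 ratio of 0.93, and the Hsp70 gene LOC_Os05g38530 on the other side, 1.99-fold lower in ERY. The count of 0 lower thus hangs on the limit, and 1 of the 5 higher calls was of a gene that reached 1 RPKM in ERY alone. In CONTROL, 2 members were higher in ERY and 3 lower of 45, beside 7.6% and 10.8% of all genes (18.4% either way). LOC_Os05g45410 was the most abundant of these, at 2.41 RPKM in ERY CONTROL and 5.86 RPKM in S.AND CONTROL. The rest were LOC_Os06g35960 and LOC_Os01g39020 (higher in ERY) and LOC_Os09g28200 and LOC_Os04g01740 (lower). Their higher mean was at most 2.10 RPKM. Of these 5 calls in CONTROL, 4 were of genes that reached 1 RPKM in a single cultivar, which fixed their direction. Most of these cultivar calls were made at low levels. With a minimum of 10 RPKM, 1 Hsf gene and 1 chaperone gene (LOC_Os01g62290) stayed higher in ERY in COLD. In CONTROL, 0 Hsf genes and 0 chaperone genes were then called. These comparisons use the same group means as the cold-night ratios and are not independent of them.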

How the data were processed

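RNA-seq libraries of poly(A) RNA from 12 anther samples were read as single 50 bp reads. Mapping to MSU 7.0 was done by the authors in CLC Genomics Workbench 4.7.1, which gave RPKM per gene. The deposited RPKM columns are the authors' means of the 3 samples of each group, scaled to the same column total. A further 4 deposited columns hold the authors' own fold changes and corrected p-values from Baggerley's test, and were not used. Depth per sample was not analysed here, 0 other columns hold values per sample, and no interval, SD or test could be computed.

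From the means, log2 ratios, calls at 2-fold with at least 1 RPKM in the higher group, class sums and medians were computed, and the code was tested on simulated data. The rule was to name all 48 listed genes, grouped by class. The members, classes and limits were chosen with earlier results of these data known. Since 0 table identifiers matched the reference table, no sequence or coordinate is printed. Alternatives were a fold of 1.5 or 3, a minimum of 10 RPKM or none, 1 RPKM added, centring on the median gene, and leaving out small Hsp20 neighbours. Python 3.11.15, NumPy 2.4.6, pandas 2.3.3 and matplotlib 3.10.9 were used.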

Additional observations from a re-analysis of the deposited data

How the results depend on the processing

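Alternatives were run for the counts of members called COLD over CONTROL, for the class medians (1 RPKM added, minimum of 10 RPKM and centring) and for the ERY over S.AND counts (these and a fold of 3). Centring on the median gene left each count within 1.5 times its value and each median on its side of 2-fold. A fold of 1.5, dropping the minimum and leaving out the 5 small Hsp20 neighbours were run for the COLD over CONTROL counts alone and left these within 1.5 times. With a fold of 3, 4 chaperone genes were lower in COLD in ERY, and in COLD 1 Hsf and 0 chaperone genes were higher in ERY than in S.AND. In CONTROL, 0 Hsf genes were then higher, 0 lower, and 0 chaperone genes lower in ERY. With a minimum of 10 RPKM, 3 Hsf genes were lower in COLD in ERY and 3 in S.AND. In COLD 1 Hsf gene was then higher in ERY than in S.AND, and in CONTROL 0 Hsf genes were higher, 0 lower, and 0 chaperone genes lower. With 1 RPKM added to each mean, these cultivar counts were 2 in COLD, and 0, 1 and 0 in CONTROL, and the small Hsp20 median log2FC in S.AND was -0.97, short of 2-fold. This also took 4 single-gene calls under 2-fold, and no value that was recomputed changed direction. Fewer genes pass a stricter limit by construction, and adding 1 RPKM shrinks ratios of low genes. No paired analysis was possible because the table holds means of groups, and for the same reason no replicate could be left out. No depth is known for single samples, so ratios of genes under about 1 RPKM are the least certain.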
